A study of Mus musculus with 20 samples.

Results

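The genes described here encode the receptor for IL-2 and the first signaling proteins behind it: the chains Il2ra, Il2rb and Il2rg, the related chain Il15ra, the kinases Jak1 and Jak3, and the transcription factors Stat5a and Stat5b. They are 8 of the 23992 gene symbols in the read count files, and they were chosen by symbol alone. Where a symbol had several RefSeq transcripts, the one that collected most reads across the 20 libraries stands for the gene.

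IL-2 is captured on the cell by IL-2Rα (CD25), and signals once IL-2Rβ and the common gamma chain γc are brought together. IL-2Rβ carries JAK1 and γc carries JAK3, and the kinases phosphorylate STAT5A and STAT5B, which then enter the nucleus. IL-15 uses the same β and γc chains with its own α chain, IL-15Rα. Tregs are known for constant high IL-2Rα, whereas resting CD8+ T cells have little of it.

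RNA was sequenced from mouse Tregs and CD8+ T cells of spleen and lymph node, either unstimulated or stimulated for 90 min or 4 hr. Each cytokine, IL-2 or its variant IL-2-REH, was given at 200 nM. IL-2-REH is an IL-2 with substitutions in the face that contacts γc, made as a partial agonist. Tregs came from B6-Foxp3EGFP mice, whose Foxp3-expressing cells carry GFP, by CD4+ isolation and a sort for GFP. CD8+ T cells came from C57BL/6J mice per the protocols, although the strain label reads C57BL/6N, and were isolated with a kit without a sort. Each of the 5 Treg groups had 3 libraries, and each of the 5 CD8+ groups had 1. The labels do not say whether Treg libraries came from separate animals, so p-values measure the spread between these libraries, which may be technical.

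Libraries held 20201392 to 63903764 reads over all 23992 genes, with the fewest in IL-2 replicate 3 at 4 hr in Tregs. Markers bore out the cell type labels. Cd8a stood at 103 to 256 RPKM in the CD8+ libraries and at 0.0879 to 1.84 in Tregs, and Foxp3 at 65.2 to 252 RPKM in Tregs and 0.482 to 0.999 in CD8+ libraries. The T cell markers Cd3d, Cd3e and Cd3g summed to 245 to 751 RPKM in all libraries. The summed RPKM of 3 B cell markers was at most 9.25 in any library. NK markers summed to 51.2 to 155 RPKM in the CD8+ libraries, of which Klrd1, a gene that CD8+ T cells also express, gave 41.2 to 146.

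A pair of Treg libraries stood apart. Across genes, the root mean square log2 difference between unstimulated replicate 1 and the other unstimulated Tregs was 1.28 to 1.3, whereas those 2 libraries differed from each other by 0.581. The same library differed from the stimulated 90 min libraries by 0.586 to 1.03. The lowest values, 0.586 and 0.683, were against those of replicate 1. Replicate 1 stood off in the stimulated groups too. It differed from replicates 2 and 3 by 0.925 to 0.989 and 0.982 to 1.004 with IL-2 and IL-2-REH at 90 min. At 4 hr those values were 1.193 to 1.201 and 1.163 to 1.209. Replicates 2 and 3 differed from each other by 0.658, 0.576, 1.139 and 0.859 in the same order. Comparisons with unstimulated Tregs rest in part on unstimulated replicate 1, so each test of a member against them is given with and without it. The other was IL-2 replicate 3 at 4 hr, whose difference from its nearest Treg library was 1.02, against 0.375 to 0.859 for each of the others. Libraries of its group differed from one another by 1.139 to 1.201, and values without it are given with the comparisons of IL-2 at 4 hr. Markers of myeloid cells (Lyz2, Csf1r, Cd68, Adgre1 and Itgam, 5 of 5 found) summed to 13.5 RPKM in unstimulated replicate 1. They summed to 58.3 and 49.2 RPKM in unstimulated replicates 2 and 3, against 7.66 to 34.3 in all stimulated Treg libraries. NK markers, 4 of 4 found, summed to 3.81, 23.1 and 14.7 RPKM in unstimulated replicates 1, 2 and 3. Erythroid markers, 3 of 3 found, were high in each replicate 3 library, at 76.1 to 131 RPKM, and at most 11.3 in the others. The part of these markers in the results below was not tested.

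The 8 genes lie at 6 places in the genome, given for GRCm38 (mm10). Il2ra (chr2:11642792-11693194) and Il15ra (chr2:11705172-11733985) are neighbors on the plus strand, 11977 bases apart. Stat5b (chr11:100780731-100859004, minus strand) and Stat5a (chr11:100859351-100885169, plus strand) lie head to head with 346 bases between their annotated ends. Jak1 is at chr4:101151974-101265282, Jak3 at chr8:71676383-71690577, Il2rb at chr15:78479256-78511621 and Il2rg at chrX:101264385-101268255. Reads were counted over exons of the transcripts NM_008367 (Il2ra), NM_008368 (Il2rb), NM_013563 (Il2rg), NM_133836 (Il15ra), NM_146145 (Jak1), NM_010589 (Jak3), NM_011488 (Stat5a) and NM_011489 (Stat5b).

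Stat5a and Stat5b are near copies over part of their coding sequence, and this bears on how far their reads can be told apart. Of the windows of 50 bases, the read length, in the Stat5a transcript, 15.8% also occur in Stat5b, and 11.8% of those in Stat5b occur in Stat5a. Only uniquely mapped reads were counted, so a read inside such a window has no unique place. The longest identical run is 324 bases over 3 coding exons of each gene. The middle of those exons is shown in full because it is the same in both genes, as exon 8 of Stat5a (chr11:100874339-100874490, plus strand) and exon 7 of Stat5b (chr11:100798234-100798385, minus strand), read 5′ to 3′ on the coding strand.
Stat5a and Stat5b shared exon: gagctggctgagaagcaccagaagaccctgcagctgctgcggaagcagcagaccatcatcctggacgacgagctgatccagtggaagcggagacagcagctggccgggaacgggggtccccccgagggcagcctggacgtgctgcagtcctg
Some members have exons that overlap another annotation at the same place in the genome, unlike the windows shared by Stat5a and Stat5b. Il2rg exons overlap those of Gm20489, on the same strand and with no row in the files, by 728 bases. Of the Il2rg windows of 50 bases, 42.0% also lie in Gm20489. Jak3 exons overlap those of Insl3 on the same strand by 404 bases, and 8.94% of the Jak3 windows also lie in Insl3 transcripts. Stat5a exons overlap those of Stat3 on the opposite strand by 72 bases, and 16.4% of Stat5a windows lie in Stat3 or Stat5b. Il2rb, Il15ra and Jak1 shared no window with another gene. Il2ra, whose exons overlap no other gene, shared 2.29% with many genes.

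Promoter sequence is shown for Il2ra, the member that passed the test in Tregs, and for the neighbors Stat5a and Stat5b, whose levels moved together. Each line gives the 250 bases before an annotated start in RefSeq (GRCm38.p6), read 5′ to 3′ on the strand of the gene: chr2:11642542-11642791 (plus) for Il2ra, chr11:100859406-100859655 (plus) for Stat5a and chr11:100850582-100850831 (minus) for Stat5b. The Stat5a and Stat5b starts lie inside the gene spans given above, which take in all RefSeq transcripts of a gene, and each gene has a second start in RefSeq whose sequence is not shown.
Il2ra: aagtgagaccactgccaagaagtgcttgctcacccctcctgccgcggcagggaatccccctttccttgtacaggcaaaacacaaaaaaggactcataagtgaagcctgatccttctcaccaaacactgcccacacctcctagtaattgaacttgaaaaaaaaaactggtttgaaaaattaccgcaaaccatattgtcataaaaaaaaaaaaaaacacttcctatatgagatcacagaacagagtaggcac
Stat5a: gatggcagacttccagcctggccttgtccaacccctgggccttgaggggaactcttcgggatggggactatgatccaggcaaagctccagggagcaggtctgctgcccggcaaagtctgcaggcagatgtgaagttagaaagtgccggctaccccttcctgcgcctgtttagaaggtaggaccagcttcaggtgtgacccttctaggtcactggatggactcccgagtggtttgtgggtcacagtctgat
Stat5b: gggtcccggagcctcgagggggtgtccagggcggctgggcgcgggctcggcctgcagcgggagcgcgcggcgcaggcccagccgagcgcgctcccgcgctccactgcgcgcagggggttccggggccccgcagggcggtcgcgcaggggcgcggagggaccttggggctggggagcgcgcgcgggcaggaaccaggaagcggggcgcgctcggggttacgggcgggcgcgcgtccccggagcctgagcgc
GC content was 42.4% in the Il2ra sequence, 57.6% in that of Stat5a and 82.0% in that of Stat5b, against a median of 52.4% over all 32851 promoters. The STAT motif TTCNNNGAA, which reads the same on both strands, was searched from 250 bases before to 50 after each start. It was in none of the windows of the 7 members with an entry and in 8.3% of all promoters, so no capitals appear in the lines above. This says only that these letters are not in these windows.

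Il2ra was the member with the widest gap between the cell types. It encodes IL-2Rα, the chain that raises affinity for IL-2. In unstimulated Tregs it stood at 62.7, 117 and 91.5 RPKM in replicates 1, 2 and 3. With IL-2 it was at 175, 151 and 127 RPKM at 90 min and at 197, 282 and 101 at 4 hr. With IL-2-REH it was at 120, 113 and 104 RPKM at 90 min and at 133, 151 and 90 at 4 hr. All IL-2 libraries at 90 min lay above all unstimulated ones, while at 4 hr replicate 3 of IL-2 lay inside the unstimulated range. In CD8+ T cells Il2ra was at 1.58 RPKM unstimulated (431 reads), 4.71 and 6.34 with IL-2 at 90 min and 4 hr, and 2.81 and 3.20 with IL-2-REH. Every stimulated CD8+ value was above the unstimulated one, and IL-2 was above IL-2-REH at both times.

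Il2rb, the signaling chain shared with IL-15, had the highest mean over the conditions among the members in Tregs, 288 RPKM, which 135 of 10473 expressed genes exceeded. In unstimulated Tregs alone its mean of 248 RPKM was below that of Il2rg, 258. It stood at 218, 306 and 222 RPKM in unstimulated Tregs. With IL-2 the values were 403, 308 and 239 RPKM at 90 min and 360, 437 and 243 at 4 hr, and with IL-2-REH they were 335, 268 and 236 at 90 min and 284, 289 and 166.4 at 4 hr. The stimulated and unstimulated ranges overlapped in all 4 conditions. CD8+ T cells had 122 RPKM unstimulated, 188 and 186 with IL-2 at 90 min and 4 hr, and 149 and 87.5 with IL-2-REH, so the lowest of the 5 CD8+ libraries was that with IL-2-REH at 4 hr.

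Il2rg encodes γc, the chain that IL-2-REH was designed to engage less well. In unstimulated Tregs it was at 247, 257 and 269 RPKM. IL-2 libraries had 222, 236 and 201 RPKM at 90 min and 134, 202 and 62.7 at 4 hr, and IL-2-REH libraries had 239, 251 and 228 at 90 min and 168, 241 and 193 at 4 hr. All 3 IL-2 libraries lay below all unstimulated ones at both times, and the lowest value, 62.7, was in the library with the fewest reads. CD8+ T cells had 266 RPKM unstimulated and 172 to 207 in the 4 stimulated libraries.

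Il15ra, the α chain for IL-15, had the lowest mean over the conditions in both cell types, although in unstimulated CD8+ T cells Il2ra was lower still. Its reads in a library numbered 54 to 578 in Tregs, too few for small differences to be seen. In unstimulated Tregs it was at 1.02, 4.61 and 4.15 RPKM. Stimulated Treg libraries ranged from 0.769 to 2.13 RPKM, so replicate 1 of the unstimulated cells lay among them and replicates 2 and 3 lay above all of them. CD8+ T cells had 3.60 RPKM unstimulated, 0.829 and 2.54 with IL-2 at 90 min and 4 hr, and 0.674 and 1.06 with IL-2-REH.

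Jak1, which binds IL-2Rβ, hardly varied among unstimulated Tregs, at 144, 141 and 144 RPKM. It was at 135, 150 and 157.8 RPKM with IL-2 and at 134, 156 and 165.2 with IL-2-REH at 90 min. At 4 hr it was at 93.7, 133 and 111 with IL-2 and at 107, 149 and 80.5 with IL-2-REH. In CD8+ T cells it stood higher, at 197 RPKM unstimulated, 193 and 150 with IL-2, and 218 and 263 with IL-2-REH at 90 min and 4 hr.

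Jak3, which binds γc, was at 20.7, 54.7 and 37.5 RPKM in unstimulated Tregs. IL-2 libraries had 19.7, 27.9 and 16.5 RPKM at 90 min and 12.9, 19.8 and 16.1 at 4 hr. IL-2-REH libraries had 13.3, 27.7 and 16.9 RPKM at 90 min and 10.2, 15.9 and 12.2 at 4 hr. All stimulated libraries at 4 hr lay below all unstimulated ones. CD8+ T cells had 26.9 RPKM unstimulated and 9.16 to 11.3 in the 4 stimulated libraries.

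Stat5a and Stat5b showed the same split among the unstimulated Tregs. Stat5a was at 145 RPKM in replicate 1 and at 29.8 and 24.2 in replicates 2 and 3, and Stat5b at 142 in replicate 1 and at 54.9 and 43.9 in replicates 2 and 3. In stimulated Tregs, Stat5a ranged from 74.4 to 143 RPKM and Stat5b from 92.2 to 140. Unstimulated replicate 1 thus lay above all 12 stimulated libraries for both genes, and replicates 2 and 3 lay below all of them. In CD8+ T cells Stat5a was at 14.5 RPKM unstimulated, 25.1 and 11.3 with IL-2 at 90 min and 4 hr, and 30.6 and 10.7 with IL-2-REH. Stat5b there was at 28.1 RPKM unstimulated, 48.3 and 29.4 with IL-2, and 56.3 and 38.3 with IL-2-REH. Both were highest at 90 min under either cytokine.

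**Figure D1:**
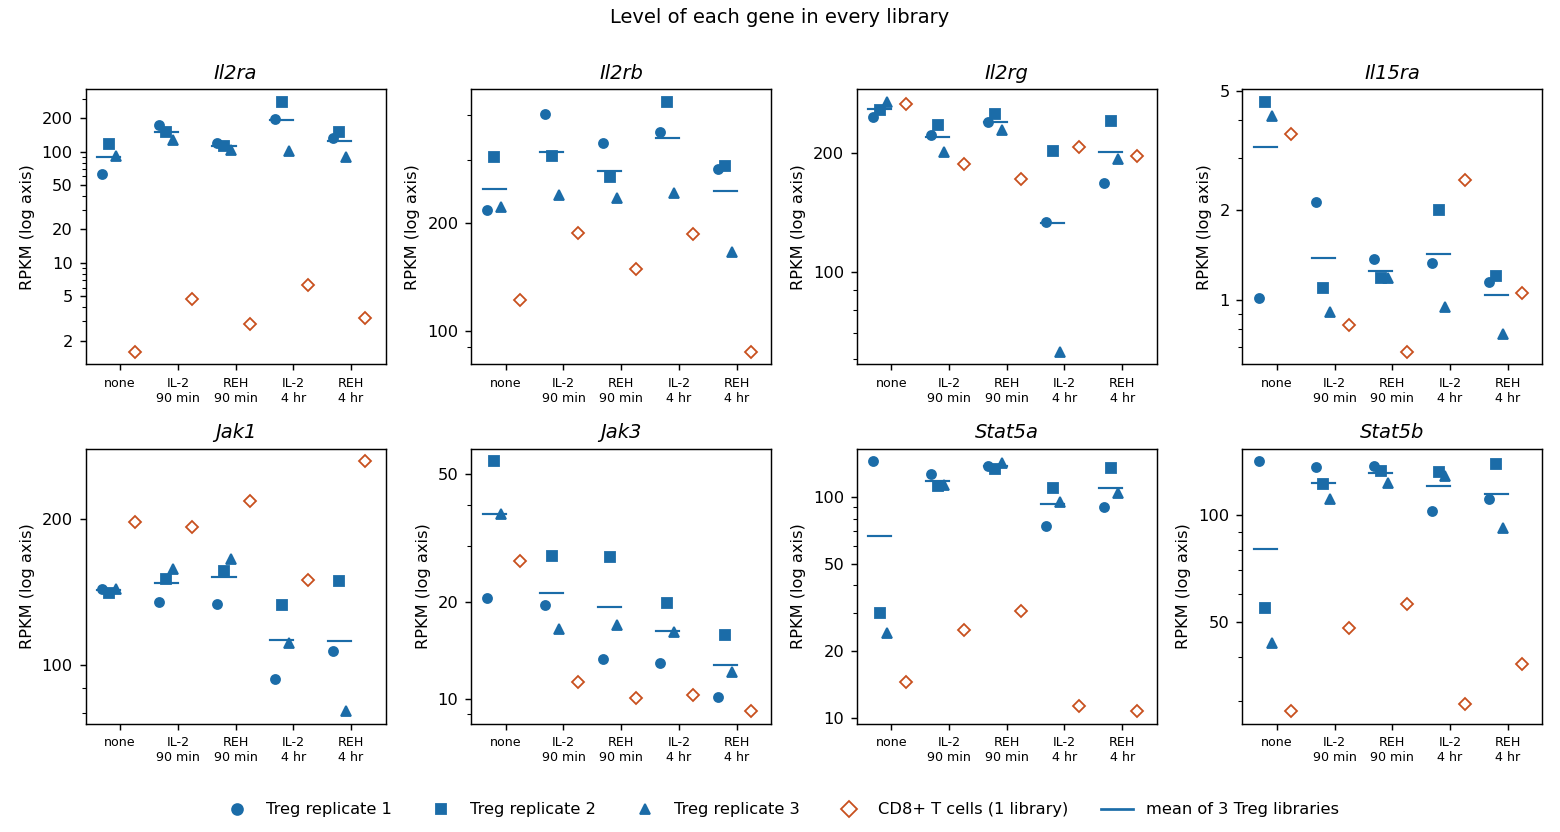
RPKM (reads scaled for transcript length and library depth, log axis) of the 8 genes in all 20 libraries, by condition (none, unstimulated; REH, IL-2-REH). Filled symbols are Treg replicates with their mean as a line, and open diamonds are single CD8+ libraries. Il2ra lies at 62.7 to 282 RPKM in Tregs and at 1.58 to 6.34 in CD8+ T cells, and unstimulated Treg replicate 1 (circle) leaves its group for Stat5a and Stat5b.

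The first question was which of these genes IL-2 and IL-2-REH changed in Tregs. Read counts of the 15 Treg libraries were tested with edgeR's quasi-likelihood test over 14992 genes, and a gene counted as changed at a Benjamini-Hochberg adjusted p below 0.05. All 8 members passed the filter on low counts. Il2ra was the sole member that changed. With IL-2 at 4 hr it rose by 1.15 on the log2 scale (SE 0.27, edgeR adjusted p = 0.041). That is 1 of 8 members, where 2.26% of all genes tested were called in this comparison. None of the 8 passed with IL-2 at 90 min, with IL-2-REH at 90 min or with IL-2-REH at 4 hr, where 0.854%, 0.0934% and 0.314% of all genes were called. At an unadjusted p below 0.05, 3 members were counted with IL-2 at 90 min, 2 with IL-2-REH at 90 min, 5 with IL-2 at 4 hr and 2 with IL-2-REH at 4 hr. The share of all genes at an unadjusted p below 0.05 is not given here. These counts therefore do not set the members apart from other genes, and the shares above hold for adjusted p only. DESeq2 called 1, 0, 3 and 2 members in the same order, out of 7, since it gave no p for Stat5a. It also called more of all genes than edgeR did. At 90 min these were 559 and 111 of 12726 with IL-2 and IL-2-REH. At 4 hr they were 1010 of 14679 with IL-2 and 583 of 13503 with IL-2-REH.

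The Il2ra call at 4 hr was a narrow one. Its adjusted p lay between 0.00867 and 0.144 when single Treg libraries were left out, and it stayed below 0.05 in 3 of 15 such fits, those without unstimulated replicate 1, IL-2 replicate 3 at 4 hr or IL-2-REH replicate 3 at 4 hr. The fold change itself was positive in every one. The other Il2ra estimates were 0.89 (SE 0.27) with IL-2 at 90 min, 0.48 (SE 0.27) with IL-2-REH at 90 min and 0.48 (SE 0.27) with IL-2-REH at 4 hr, none past the threshold. Without unstimulated replicate 1 they were 0.75 (SE 0.29), 0.34 (SE 0.29) and 0.33 (SE 0.29), and again none passed. Without IL-2 replicate 3 at 4 hr, Il2ra rose by 1.42 with IL-2 at 4 hr (SE 0.22, edgeR adjusted p = 0.0087), where 1.01% of all genes were called and no other member was.

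Same-numbered libraries deviated together, so the fit with replicate number as a block was also read. It gave Il2ra the same call with IL-2 at 4 hr (log2 1.11, edgeR adjusted p = 0.017) and added 2 members that fell. Il2rg fell by 0.98 on the log2 scale (edgeR adjusted p = 0.047, against 0.1001 without the block). That call was lost without unstimulated replicate 1, at -0.87 with the block and -0.89 without it (edgeR adjusted p of 0.052 and 0.090). Without IL-2 replicate 3 at 4 hr and without the block it was -0.63 (edgeR adjusted p = 0.216). The block was not fitted without that library. Jak3 fell by 1.05 with IL-2 at 4 hr (edgeR adjusted p = 0.0061) and by 1.48 with IL-2-REH at 4 hr (edgeR adjusted p = 0.0016). Without the block the Jak3 values were -1.10 and -1.52 with adjusted p of 0.105 and 0.074 from edgeR. All genes called with the block made up 1.83% and 0.213% at 90 min with IL-2 and IL-2-REH, and 6.94% and 3.03% at 4 hr.

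Leaving out unstimulated replicate 1 changed which genes were called. Of 15 fits that each left out 1 Treg library, it was the only one to call Stat5a, Stat5b or Il15ra against unstimulated Tregs. The unstimulated group then held replicates 2 and 3 alone. Stat5a rose in all 4 stimulated groups, by 2.36 and 2.60 on the log2 scale with IL-2 and IL-2-REH at 90 min and by 1.94 and 2.11 at 4 hr, with SE of 0.22 throughout and edgeR adjusted p of 4.7e-05, 3.1e-05, 0.00029 and 0.00033. Stat5b rose by 1.55 and 1.64 at 90 min and by 1.46 and 1.29 at 4 hr, with edgeR adjusted p from 0.00035 to 0.0028. With all 15 libraries the Stat5a estimates were 0.87, 1.11, 0.46 and 0.62 and the Stat5b estimates 0.70, 0.78, 0.60 and 0.44, with SE of 0.53 and 0.37, and none passed.

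Il15ra fell in the same fit, with log2 changes of -1.49 and -1.59 for IL-2 and IL-2-REH at 90 min and of -1.488 and -1.999 at 4 hr (edgeR adjusted p of 0.0079, 0.0061, 0.012 and 0.0034). The 15 libraries gave -1.09, -1.19, -1.09 and -1.60, none past the threshold. Jak3 fell by 1.34 with IL-2 and by 1.77 with IL-2-REH at 4 hr (edgeR adjusted p of 0.023 and 0.0082), whereas at 90 min it had -0.87 and -0.995 (edgeR adjusted p of 0.097 and 0.063), against -0.63 and -0.76 from 15 libraries, with none passing. Il2ra kept its call with IL-2 at 4 hr, at a log2 change of 1.01 (edgeR adjusted p = 0.049). Without this library many more genes of the whole table were called too: 12.9% and 12.1% at 90 min with IL-2 and IL-2-REH, and 8.87% and 6.93% at 4 hr. The members called were 3, 3, 5 and 4 of 8 in that order. The unstimulated libraries that carry these calls, replicates 2 and 3, are also those with the highest myeloid and NK marker sums among Tregs, as given above.

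Il2rb and Jak1 passed in no comparison with unstimulated Tregs, with or without the library or with the block. The Il2rb estimates of the 15 libraries were 0.48, 0.31, 0.54 and -0.01 with IL-2 and IL-2-REH at 90 min and at 4 hr (SE 0.22 each), and those of Jak1 were 0.20, 0.24, -0.28 and -0.37 (SE 0.24 each). Without unstimulated replicate 1 they were 0.48, 0.30, 0.54 and -0.02 for Il2rb and 0.29, 0.33, -0.20 and -0.28 for Jak1. Il2rg passed in none of the 4 without the block, with -0.09, 0.03, -0.94 and -0.37 from 15 libraries (SE 0.27 to 0.28) and -0.04, 0.08, -0.89 and -0.32 without that library. The median log2 change of the 8 members over 15 libraries was 0.34, 0.27, 0.09 and -0.19 in the same order, against -0.06, -0.05, -0.00 and 0.01 over all genes tested.

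**Figure D2:**
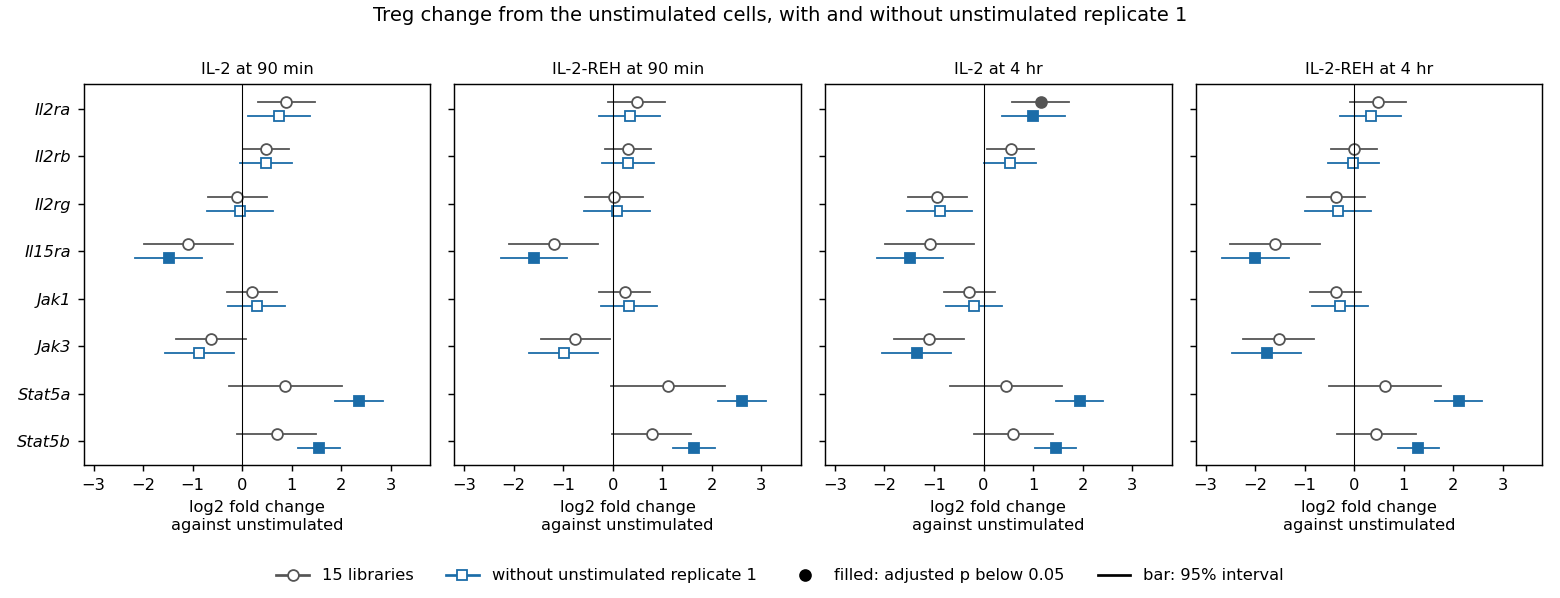
Log2 fold change of each gene in Tregs against unstimulated cells (x axis), in 4 stimulated groups, with 95% intervals from edgeR. Circles use 15 libraries and squares leave out unstimulated replicate 1; filled symbols have an adjusted p below 0.05. Il2ra at 4 hr of IL-2 is the only filled circle, and Stat5a moves from 0.87 to 2.36 in the first panel when the library is left out.

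The second question was whether IL-2-REH and IL-2 differed at the same dose and time in Tregs. Both pairs of groups, 90 min and 4 hr, were compared, with p-values adjusted over all genes within each. No member differed at either time by edgeR, where 0.0133% and 0.0267% of all genes were called at 90 min and 4 hr. At an unadjusted p below 0.05 there were 0 members at 90 min and 2 at 4 hr, Il2ra and Il2rb, and neither DESeq2, with no p for Stat5a, nor limma nor the block called a member. The share of all genes at that unadjusted p is not given, so the members cannot be set against it. The largest estimates at 4 hr, IL-2-REH minus IL-2, were -0.67 for Il2ra (95% interval -1.24 to -0.10), -0.55 for Il2rb (-1.02 to -0.08) and 0.57 for Il2rg (-0.02 to 1.16). Adjusted p was 0.9996 for each by edgeR. Without IL-2 replicate 3 at 4 hr these were -0.95 (-1.41 to -0.48), -0.70 (-1.17 to -0.24) and 0.26 (-0.18 to 0.71), with edgeR adjusted p of 0.536, 1.0 and 1.0. The intervals from 15 libraries do not show that the cytokines act alike. At 4 hr they leave room for a difference of more than 1 on the log2 scale in Il2ra, Il2rb, Il2rg, Il15ra, Jak3 and Stat5a.

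The change of this difference from 90 min to 4 hr was also tested. It passed for no member by edgeR, with 0.0% of all genes called, 0 members at an unadjusted p below 0.05 and 0 by DESeq2 and limma. The estimates ran from -0.41 (-1.67 to 0.85) for Il15ra to 0.44 (-0.39 to 1.28) for Il2rg.

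Same-numbered pairs gave the direction library by library. On the log2(RPKM + 1) scale, IL-2-REH was below IL-2 in all 3 pairs for Il2ra at 90 min (-0.53, -0.42 and -0.28) and at 4 hr (-0.57, -0.89 and -0.17). For Il2rb it was below in all 3 pairs at 4 hr, by -0.34, -0.59 and -0.54. Il2rg was above in all 3 at 4 hr, at 0.33, 0.26 and 1.61, the last of these being the pair with the shallow IL-2 library. At 90 min the intervals of the 8 members spanned 0 in each case, from -0.41 (-0.98 to 0.15) for Il2ra to 0.24 (-0.89 to 1.37) for Stat5a.

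CD8+ T cells gave single values, to be read without a test. IL-2-REH minus IL-2 was -0.58 for Il2ra and -0.33 for Il2rb at 90 min, and -0.81 and -1.08 at 4 hr, on the log2(RPKM + 1) scale. Of the 8 members, 0 lay past 2-fold at 90 min and 1, Il2rb, at 4 hr, where 0.868% and 2.23% of 10021 expressed genes did. Jak1 was higher with IL-2-REH at 4 hr by 0.81 and Stat5b by 0.37.

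**Figure D3:**
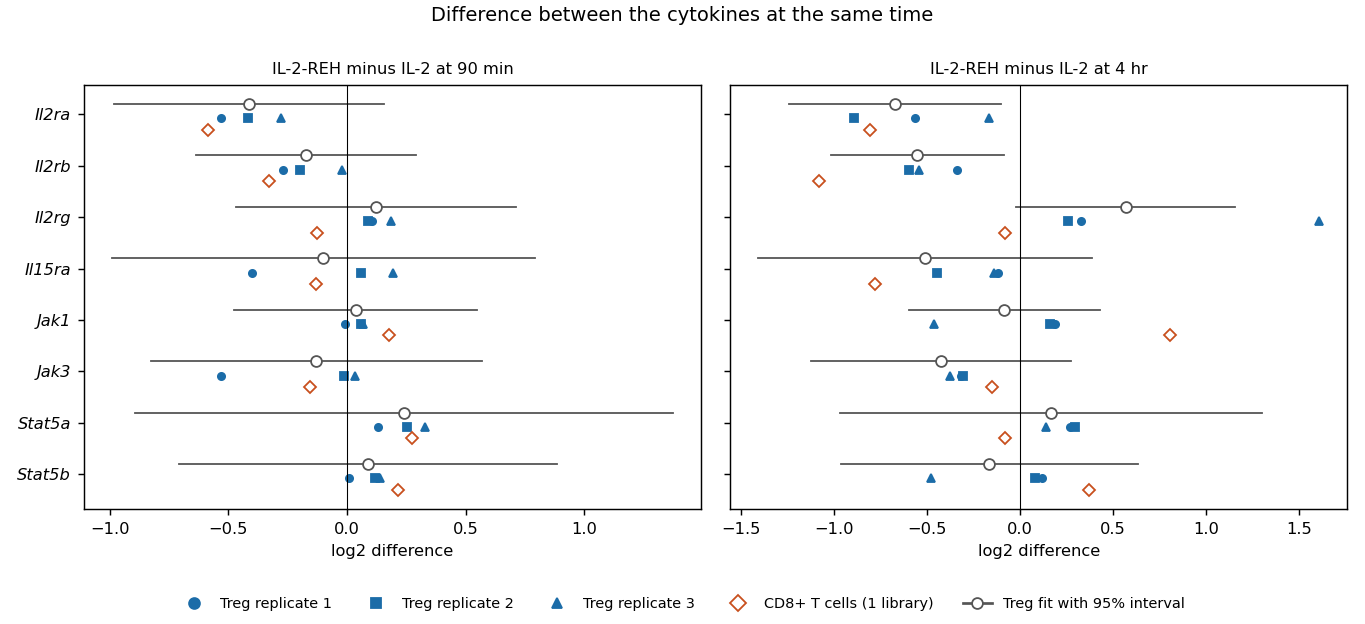
Log2 difference of IL-2-REH minus IL-2 (x axis) at 90 min and 4 hr. Open circles with bars are the Treg fit and its 95% interval, small filled symbols the 3 same-numbered Treg pairs, and diamonds the single CD8+ pair (both on log2 of RPKM + 1). Il2ra is below 0 in all Treg pairs and in CD8+ T cells at both times, and Il2rg pair 3 at 4 hr reaches 1.61.

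Time was compared within each cytokine. Neither comparison of 4 hr with 90 min in Tregs called a member or any other gene by edgeR (0.0% of 14992 in both), with 1 and 2 members at an unadjusted p below 0.05 for IL-2 and IL-2-REH and 0 by DESeq2. The share of all genes at that unadjusted p is not given here either. The estimates farthest from 0 were -0.84 for Il2rg with IL-2 (SE 0.28) and -0.77 for Jak3 with IL-2-REH (SE 0.33). Without IL-2 replicate 3 at 4 hr the Il2rg value was -0.54 (edgeR adjusted p = 0.532). With the block and without unstimulated replicate 1 together, a fit chosen after the data had been seen, Il2rg fell by 0.87 from 90 min to 4 hr of IL-2 (edgeR adjusted p = 0.048). In that fit Jak3 fell by 0.71 and Stat5a by 0.49 over the same time in IL-2-REH (edgeR adjusted p of 0.021 and 0.032). The share of all genes called in these comparisons of that fit is not given, so the calls do not set the members apart. The fit called many genes against unstimulated Tregs, from 2587 to 4169 of 15494.

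The CD8+ libraries were set against their unstimulated library one by one. Jak3 was lower in all 4, with log2 ratios of RPKM + 1 of -1.18 and -1.33 with IL-2 and IL-2-REH at 90 min and -1.31 and -1.46 at 4 hr. Il15ra had -1.33, -1.46, -0.38 and -1.16 in the same order. Il2ra had 1.14 and 0.56 at 90 min and 1.51 and 0.70 at 4 hr. Stat5a was at 0.75 and 1.02 at 90 min and at -0.33 and -0.41 at 4 hr. Members past 2-fold in either direction numbered 3, 3, 2 and 2 of 8 in that order, where 7.24%, 8.57%, 4.71% and 6.11% of expressed genes were. Over all expressed genes the median of these log2 ratios lay furthest from 0 with IL-2-REH at 90 min, at -0.12, and relative to it Stat5b also lay past 2-fold. These ratios rest on 1 library a side. Counting error alone, from the reads, gives Il2ra without a pseudocount an interval of 1.42 to 1.73 with IL-2 at 90 min and 0.653 to 0.999 with IL-2-REH.

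The last comparison set CD8+ T cells beside Tregs in the same condition. Il2ra was lower in CD8+ T cells by 57.1-fold unstimulated, by 31.98- and 40.1-fold with IL-2 and IL-2-REH at 90 min and by 30.5- and 39.01-fold at 4 hr, as ratios of RPKM to the Treg mean. Stat5a was lower by 4.57-, 4.70-, 4.55-, 8.22- and 10.3-fold and Stat5b by 2.86-, 2.56-, 2.33-, 4.12- and 2.99-fold in the same order. Il2rb was lower by 1.69- to 2.82-fold. All 4 genes lay below the 3 Treg libraries in all 5 conditions. Jak1 was the reverse, above all 3 Treg libraries in each condition by 1.31- to 2.34-fold. In bulk RNA, fewer cells of a type and less RNA per cell cannot be told apart. Mouse line and isolation differed together with cell type, so their parts in these gaps cannot be told apart either. Each CD8+ value came from 1 library.

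The Stat5 gap in unstimulated cells depends on which Treg libraries are used. The CD8+ value of Stat5a, 14.5 RPKM, compares with 145 in unstimulated replicate 1 and with 29.8 and 24.2 in the others. Without replicate 1, 2 members rather than 4 lay past 2-fold in unstimulated cells. Il2rg and Il15ra lay inside the Treg range in unstimulated cells and with IL-2-REH at 4 hr, and Jak3 did so in unstimulated cells alone. Members with an absolute log2 ratio above 1 were 4 of 8 unstimulated, 3 at 90 min of IL-2, 3 at 90 min of IL-2-REH, 3 at 4 hr of IL-2 and 5 at 4 hr of IL-2-REH, where 11.3%, 12.1%, 13.0%, 13.4% and 13.6% of 10458 expressed genes were. Over all expressed genes the median log2 ratio was -0.127 to -0.0153, and relative to it 3 members, without Il2rb, lay past 2-fold in unstimulated cells. Lying outside the range of 3 libraries was common, at 55.9%, 62.5%, 64.1%, 56.4% and 64.1% of genes.

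**Figure D4:**
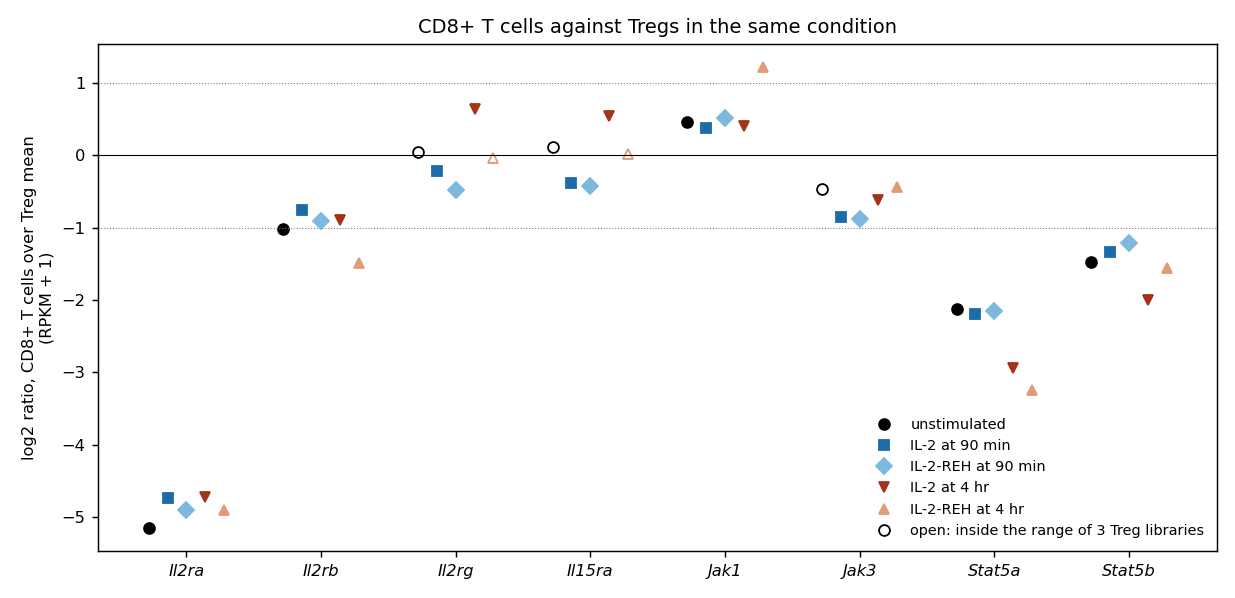
Log2 ratio of CD8+ RPKM + 1 over the mean Treg RPKM + 1 (y axis) for each gene and condition. Open symbols lie inside the range of the 3 Treg libraries, and dotted lines mark 2-fold. Il2ra lies at -5.15 in unstimulated cells and from -4.905 to -4.725 in stimulated ones, and Jak1 is above 0 in all, reaching 1.22 with IL-2-REH at 4 hr.

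By level per length, the order of the members differed between the cell types. Mean RPKM over the conditions in Tregs was 288 for Il2rb, 210.0 for Il2rg, 134 for Il2ra, 133 for Jak1, 114 for Stat5b, 105 for Stat5a, 21.5 for Jak3 and 1.67 for Il15ra. Il2ra and Jak1, Jak1 and Stat5b, and Stat5b and Stat5a were neighbors in this order that differed by less than 1 SD over the libraries. In CD8+ T cells the order was Il2rg at 206, Jak1 at 204, Il2rb at 146, Stat5b at 40.1, Stat5a at 18.4, Jak3 at 13.5, Il2ra at 3.73 and Il15ra at 1.74. There Il2rg and Jak1, and Stat5a and Jak3, differed by less than 1 SD over the 5 conditions. The order also moved with the condition. In unstimulated Tregs Il2ra, at a mean of 90.5 RPKM, was below Jak1 at 143, and with IL-2-REH at 90 min, at 113, it was below Jak1 at 152, Stat5a at 139 and Stat5b at 131. Il2ra was below Jak1, Jak3 and both STAT5 genes in every CD8+ library.

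Ratios of partner genes within a library do not depend on its depth. Il2ra to Il2rb was 0.288 to 0.412 in unstimulated Tregs, 0.416 to 0.645 with IL-2 at 4 hr and 0.467 to 0.541 with IL-2-REH at 4 hr, with no overlap between unstimulated and stimulated libraries at 4 hr. It was 0.013 to 0.0365 in CD8+ T cells. Il2rb to Il2rg, the chains that IL-2 brings together, was 0.825 to 1.19 in unstimulated Tregs, 2.16 to 3.88 with IL-2 at 4 hr and 0.86 to 1.69 with IL-2-REH at 4 hr, so IL-2 libraries lay above both other groups, also without replicate 3, which held the highest value. In CD8+ T cells it was 0.458 unstimulated and 0.899 and 0.447 with IL-2 and IL-2-REH at 4 hr. Jak1 to Jak3 was 2.58 to 6.94 in unstimulated Tregs and 5.38 to 10.54 in stimulated ones, and 7.34 in unstimulated and 14.6 to 28.6 in stimulated CD8+ T cells. Stat5a to Stat5b was 0.544 and 0.552 in unstimulated Treg replicates 2 and 3, 1.03 in replicate 1 and 0.726 to 1.17 in stimulated Tregs, while CD8+ T cells held 0.279 to 0.543.

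**Figure D5:**
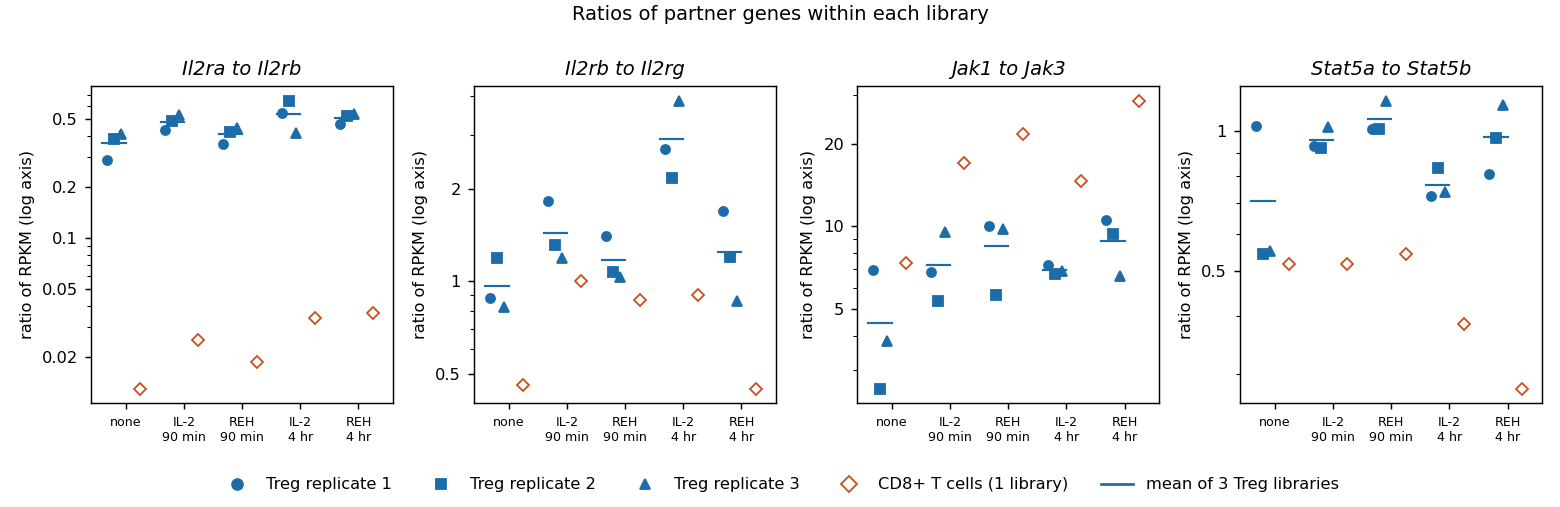
Ratio of the RPKM of partner genes within each library (log axis), by condition (none, unstimulated; REH, IL-2-REH). Filled symbols are Treg replicates with their mean as a line, and diamonds are single CD8+ libraries. Il2rb to Il2rg lies at 2.16 to 3.88 in Tregs with IL-2 at 4 hr, above the unstimulated and the IL-2-REH libraries of that time, and Stat5a to Stat5b in unstimulated replicate 1 lies at 1.03, apart from 0.544 and 0.552.

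Other genes of the pathway were read from 6 fixed lists with 31 genes, of which 30 were tested in Tregs. The ligands were near 0: group means of Il2 were at most 0.0688 RPKM and those of Il15 at most 0.292 in any group of either cell type. Among 7 feedback and phosphatase genes, 3 rose with IL-2 at 90 min and the same number at 4 hr, 1 with IL-2-REH at 90 min and 0 with IL-2-REH at 4 hr. With the replicate block the last count was 3, as many as with IL-2: Cish (0.72), Socs1 (1.23) and Socs2 (1.32), with edgeR adjusted p of 0.035, 0.043 and 0.026. Cish, a STAT5-induced inhibitor of the receptor, rose by 2.12 and 1.56 on the log2 scale with IL-2 at 90 min and 4 hr (edgeR adjusted p of 7.6e-05 and 0.00073) and by 1.10 with IL-2-REH at 90 min (edgeR adjusted p = 0.034). Mean Cish was 58.1 ± 6.43 RPKM in unstimulated Tregs, 114 ± 15.6 and 95.9 ± 13.9 with IL-2-REH at 90 min and 4 hr, and 229 ± 38.1 and 165.6 ± 50.7 with IL-2 at those times (mean ± SD of 3 libraries). Socs1, which inhibits JAK kinases, rose by 2.28 and 2.36 with IL-2 at the same times, and Socs2 by 1.74 and 1.70.

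Among 4 other chains that pair with γc, 1 fell with IL-2 at 4 hr: Il7r, the α chain for IL-7, by 1.37 (edgeR adjusted p = 0.023). Of 7 other JAK and STAT genes, 1 rose with IL-2 at 4 hr: Stat2, by 0.82 (edgeR adjusted p = 0.027). Both calls were lost without IL-2 replicate 3 at 4 hr (Il7r -1.15 and Stat2 0.75, edgeR adjusted p of 0.082 for each), whereas those of Cish, Socs1 and Socs2 remained. No member of the lists of 4 adaptors or 7 STAT5 targets passed in any of the 4 comparisons, and Myc, a STAT5 target, had 2.13 with IL-2 at 90 min (edgeR adjusted p = 0.060). With the block, 4, 1, 7 and 3 of 30 genes passed with IL-2 and IL-2-REH at 90 min and at 4 hr, among them Myc with IL-2 at both times (2.02 and 1.44) and Gzmb with IL-2 at 4 hr (1.50). Without unstimulated replicate 1, 14, 9, 10 and 8 of 30 passed. With IL-2 at 90 min those that rose then included the kinase gene Jak2 (2.18), Stat3 (2.01), Stat4 (1.997) and Il4ra, the α chain for IL-4 (1.43), and those that fell were the kinase gene Tyk2 (-0.89), the phosphatase gene Ptpn6 (-2.18) and Il9r, the α chain for IL-9 (-1.98). Stat3 and Stat4 rose and Ptpn6 fell in all 4 comparisons of that fit. Between IL-2-REH and IL-2, 0 of 30 passed at either time in these 3 fits.

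Cish in CD8+ T cells was at 1.87 RPKM unstimulated, 30.6 and 26.1 with IL-2 at 90 min and 4 hr, and 2.47 and 2.45 with IL-2-REH. Socs1 was at 9.25 RPKM unstimulated, 36.2 and 42.3 with IL-2, and 8.76 and 9.81 with IL-2-REH. Both were high in the IL-2 libraries and near the unstimulated value in the IL-2-REH ones.

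Likeness across the 10 group means was measured as Pearson's r of log2(RPKM + 1) over 11404 genes, as a description: the means of a cell type share libraries and the cell types differ, so a gene high in Tregs alone scores well. Among the members, r was highest between Stat5a and Stat5b (0.979), and Il2ra had 0.923 with Stat5b and 0.894 with Il2rb. The genes most like Il2ra were B4galt4, Foxp3 and Fam129a, each at 0.992. For Il2rb they were Ncoa3 (0.957), Adpgk (0.956) and Map3k5 (0.954), and for Il2rg Zcchc10 (0.948), Prcp (0.945) and Pex3 (0.919). Those for Il15ra were F2rl3 (0.968), Thop1 (0.962) and Pml (0.947), and those for Jak1 were Mios (0.959), Gm14305 (0.958) and Gtf3c3 (0.957). Jak3 was matched by Lmo2 (0.979), Insl3 (0.966) and Mx2 (0.962), of which Insl3 shares exons with it. Lrrc8d (0.997), Odc1 (0.988) and Mt1 (0.987) were most like Stat5a, and Gm15645 (0.99), Phlpp1 (0.99) and Nfkb1 (0.989) most like Stat5b.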

How the data were processed

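RNA was sequenced as single-end reads of 50 bases from 20 libraries. The authors mapped reads to mm10 with Bowtie2 2.2.6 and TopHat2 2.1.1 and used SAMtools 0.1.8, bedtools 2.25.0 and edgeR, per the submitters' processing notes. They deposited read counts for RefSeq transcripts, not normalized, and RPKM, reads scaled by the authors to transcript length and mapped reads. Whether strand was used is not given in the sources used here.

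Each gene was represented by its transcript with the most reads. Counts of the 15 Treg libraries were tested with edgeR 4.0.16 in R 4.3.3 (TMM, filterByExpr, quasi-likelihood, 1 mean per group), with Benjamini-Hochberg adjustment over 14992 genes. CD8+ T cells, with 1 library per group, were not tested: values were set side by side as log2 ratios after adding 1 to each RPKM, over genes whose RPKM averaged 1 or more, and 95% intervals there cover counting error only (exact binomial). The fit was first tested on simulated counts with known changes. Those counts carried no replicate effect and no library that stood apart, so that test does not cover the spread between these Treg libraries. Python 3.11.15 with pandas 2.3.3, and matplotlib 3.10.9, made tables and figures.

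Replicate numbers come from the sample titles. Deviations of same-numbered libraries from their group means correlated at 0.121 to 0.84 across genes in each of 24 pairs, so the numbers were taken to pair libraries, and a fit with the number as a block was read beside the main one. Alternatives were DESeq2 1.42.0, limma 3.58.1 on log2(RPKM + 1), RLE size factors, no filter, the longest transcript and leaving out libraries. For the log2 ratios they were a pseudocount of 0.1 and centring on medians.

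The members, the pathway and marker lists and the rules were chosen with earlier results of these data known. The genes named are the 8 members, the pathway genes past the threshold or with the largest change, and the 3 genes most like each member. Adgre1 was matched by an older symbol. Columns of other samples were 0 in number. Promoter sequences are from RefSeq (7 of 8 members matched; Il2rb had no entry), gene spans from RefSeq (GRCm38.p6), and exon overlaps and windows from GENCODE M21.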

Additional observations from a re-analysis of the deposited data

Results flagged for a closer look

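A direction in CD8+ T cells opposite to that in all 3 same-numbered Treg pairs was found in 6 of 64 member comparisons, as log2 ratios of RPKM + 1. None of these differences between the cell types was tested, since the CD8+ groups hold 1 library each. The share of all genes that meet this rule is not given, so 6 of 64 does not set the members apart. Over all expressed genes the median CD8+ log2 ratio of IL-2-REH minus IL-2 was -0.0675 at 90 min and 0.077 at 4 hr. The smallest values below are of that size.

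Most of them concern Il2rg, the γc chain. IL-2-REH minus IL-2 was -0.13 in CD8+ T cells at 90 min, against 0.11, 0.09 and 0.18 in Tregs, and -0.081 at 4 hr, against 0.33, 0.26 and 1.61. From 90 min to 4 hr, Il2rg was higher by 0.14 with IL-2 and by 0.19 with IL-2-REH in CD8+ T cells, whereas the Treg pairs gave -0.72, -0.22 and -1.66 with IL-2 and -0.51, -0.05 and -0.24 with IL-2-REH.

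Jak1 was at 0.27 from 90 min to 4 hr of IL-2-REH in CD8+ T cells, and at -0.32, -0.07 and -1.03 in Tregs. Stat5a with IL-2-REH minus IL-2 at 4 hr was -0.078 in CD8+ T cells, and 0.27, 0.30 and 0.14 in Tregs.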

How the results depend on the processing

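Depth limits Il15ra most, and the CD8+ comparisons have no replicates. All genes called with IL-2 and IL-2-REH at 90 min and at 4 hr numbered 128, 14, 339 and 47 as reported, 275, 32, 1040 and 454 with the replicate block, 559, 111, 1010 and 583 with DESeq2, 108, 0, 266 and 25 with limma, 1998, 1874, 1374 and 1073 without unstimulated replicate 1, and 4169, 3935, 3248 and 2587 with the block as well. Without IL-2 replicate 3 at 4 hr, 156 of 15433 genes were called with IL-2 at 4 hr. The genes tested numbered 14992 as reported and with the block, and 10473 with limma. They numbered 15494 without unstimulated replicate 1, with or without the block. With DESeq2 they were 12726 at 90 min, and 14679 and 13503 at 4 hr with IL-2 and IL-2-REH. Totals are not given for the other fits with libraries left out. The number of members called against unstimulated Tregs depended on the fit. With IL-2 at 90 min it was 0 as reported, 1 with DESeq2, 0 to 3 when replicates or single libraries were left out, and 5 with the block and without unstimulated replicate 1. With IL-2-REH at 90 min it was 0, 0 to 3 and 4 in the last 2 settings. With IL-2 at 4 hr it was 1 as reported, 3 with the replicate block and with DESeq2, 0 with limma and 0 without the filter, 0 to 5 over the left-out libraries and 5 in the added fit. With IL-2-REH at 4 hr it was 0 as reported, 1 with the replicate block, 2 with DESeq2, 0 to 4 over the left-out libraries and 4 in the added fit. From 90 min to 4 hr it was 0 with either cytokine and 1 (IL-2) and 2 (IL-2-REH) in the added fit. Totals over all genes are not given for that time comparison in the added fit. That fit was chosen after seeing the data. The block changed no other member call, and the cause of each change of a count was not tested. In CD8+ T cells, a pseudocount of 0.1 put 2 members rather than 1 past 2-fold between the cytokines at 4 hr. Against CD8+ T cells, leaving out unstimulated Treg libraries gave 2 to 4 members.

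No estimate that changed direction passed the test after the change. Il2rg with IL-2-REH at 90 min was 0.03, -0.11 with limma and -0.11 to 0.14 over left-out libraries, and with IL-2 at 90 min it was -0.26 to 0.026. Il15ra from 90 min to 4 hr of IL-2 was 0.0023, -0.022 with the replicate block, -0.0069 without the filter and -0.33 to 0.35 over left-out libraries. Il2ra over the same time in IL-2-REH was 0.0026, -0.020 with the replicate block, -0.013 without the filter, -0.031 in the added fit and -0.10 to 0.21 over left-out libraries. Over left-out libraries, Il2ra spanned -0.011 to 0.54 and Il2rb -0.049 to 0.21 from 90 min to 4 hr of IL-2. Il2rb spanned -0.15 to 0.18 with IL-2-REH at 4 hr and Stat5a -0.0077 to 2.06 with IL-2 at 4 hr. For IL-2-REH minus IL-2, Il15ra spanned -0.31 to 0.23, Jak1 -0.11 to 0.20 and Jak3 -0.49 to 0.14 at 90 min, and Jak1 -0.28 to 0.12 and Stat5b -0.29 to 0.038 at 4 hr.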
